A study of Rattus norvegicus with 24 samples.

Results

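Ccn2, better known as connective tissue growth factor, was examined in the dentate gyrus of young and aged rats together with 5 genes of its family and signalling circuit, namely Ccn1, Ccn3, Tgfb2, Tgfbr2 and Yap1. Members were found by exact gene symbol in the array annotation. Of the 6 genes, 4 had at least 1 probe set (a group of short probes read as 1 value), out of 14217 genes named in the whole series, and they held 5 probe sets. Tgfbr2, a TGF-beta receptor subunit, and Yap1, the transcriptional coactivator at the end of the Hippo pathway, had no probe set under their symbols and were not analysed here. Ccn2 was selected on its measured differences from the young group, so its values against young animals are a description, and counts of calls that include it support nothing.

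The dentate gyrus is the hippocampal subregion that holds the granule neurons. Total RNA from male Long-Evans rats was hybridised to Affymetrix arrays, 1 labelled animal per array. The young group held 8 arrays from animals of 6 months. Young replicate 9 is labelled young throughout but is listed among the unimpaired samples in the series, where a replicate number of that group is missing, and it was grouped by its labels. The aged animals, 24 to 26 months old, had been divided by their performance in the Morris water maze, a spatial learning test, into an unimpaired group of 6 arrays and an impaired group of 7 arrays. The labels name no genetic modification and no drug in any group, and tissue was taken 2 weeks after behavioural testing. A further 3 labelled samples, 1 from each group, had been left out by the submitters at quality control and had no values. Levels are log2 values after GCRMA, a method that corrects probe background by sequence, so a difference of 1 is a doubling. A probe set was tested when its level was above 4 on at least 6 of the 21 arrays, which 15177 probe sets for 8737 named genes met. Array medians over all probe sets lay between 3.77 and 3.84. Of 7 listed markers of granule neurons, 5 were on the array, and 4 lay above 4 on every array: Prox1 (10.5 to 11.0), Calb1 (10.9 to 11.6), Plk5 (7.86 to 8.93) and Dsp (6.31 to 8.59). The other, Tdo2, lay at 2.37 to 2.42 on all 21 arrays.

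CCN proteins are secreted matricellular proteins: they sit in the extracellular matrix, bind integrins and growth factors, and modulate signalling rather than build the matrix. Ccn2 and Ccn1 are classical target genes of YAP and its partner TAZ, which act through TEAD transcription factors, and Ccn2 is also induced by TGF-beta through SMAD proteins. Ccn3 differs from both in its regulation and can oppose the actions of Ccn2 in other tissues. Tgfb2 encodes a TGF-beta ligand that is made by neurons and glia and signals through a receptor complex containing Tgfbr2.

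The promoters of Ccn2 and Ccn1 are shown because the letters bound by TEAD factors occur in both of these YAP target genes, of which only Ccn2 passed the level filter. Each run is the 250 bases before the annotated gene start, from RefSeq GRCr8, read 5′ to 3′ on the minus strand, with the TEAD letters GGAATG, or CATTCC where they lie on the opposite strand, in capitals. The Ccn2 run is chr1:22624615-22624864 and the Ccn1 run is chr2:237225690-237225939.
Ccn2: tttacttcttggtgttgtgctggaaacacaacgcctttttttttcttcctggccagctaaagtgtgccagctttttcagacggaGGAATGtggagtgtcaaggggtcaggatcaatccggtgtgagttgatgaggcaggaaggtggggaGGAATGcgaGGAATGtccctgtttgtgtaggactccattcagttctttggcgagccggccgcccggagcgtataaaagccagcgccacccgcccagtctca
Ccn1: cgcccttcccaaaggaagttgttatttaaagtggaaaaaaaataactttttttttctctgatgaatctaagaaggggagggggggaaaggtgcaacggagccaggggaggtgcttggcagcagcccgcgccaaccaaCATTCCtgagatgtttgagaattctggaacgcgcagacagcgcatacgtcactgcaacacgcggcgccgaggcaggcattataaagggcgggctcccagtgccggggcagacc
For Ccn2 and Ccn1 the window of 300 bases searched ran from 250 bases before to 50 bases after the start. Both strands were searched, and the motifs did not overlap one another. GGAATG occurred 3 times in the Ccn2 window, starting at -166, -101 and -92 from the gene start, and 1 time in the Ccn1 window, at -113. It occurred in 14.2% of 33465 RefSeq promoters of the same length, and 32 of them (0.0956%) held it at least 3 times. TATAAA, the letters of the TATA box, stood at -31 in Ccn2 and at -34 in Ccn1, and was present in 14.2% of promoters. CAGACA, letters bound by SMAD proteins, was found in the Ccn1 window at -80 and not in the Ccn2 window, and occurred in 21.1% of promoters. None of these letters was found in the window listed for Tgfb2, chr13:100792636-100792935 on the minus strand. That window lies inside the annotated gene, which runs to 100793227. The bases before the annotated start of Tgfb2 were therefore not searched. The search for SMAD letters took only the exact letters given. All of those SMAD letters but the last stand in the Ccn2 run, just before its first TEAD match. Other forms of a SMAD site were not searched for, so the presence of such a site in the Ccn2 window was not tested. These matches describe sequence only.

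Ccn2 was higher in the aged dentate gyrus, with the highest mean in impaired animals. The level (probe set 1367631_at) ranged from 4.58 to 7.47 in the young group, with a median of 5.85. Unimpaired animals ranged from 6.28 to 7.61, with a median of 7.05. Impaired animals ranged from 6.95 to 9.22, with a median of 7.58. The lowest 4 young arrays lay between 4.58 and 5.68, whereas Impaired replicates 2 and 3, at 9.22 and 8.76, stood above every other array. Each pair of groups overlapped: Young replicate 5, at 7.47, reached into both aged ranges, and Unimpaired replicate 3, at 6.28, lay below the next highest young array, Young replicate 7, at 6.31. In bulk tissue, fewer cells of a type and less RNA per cell cannot be told apart.

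**Figure D1:**
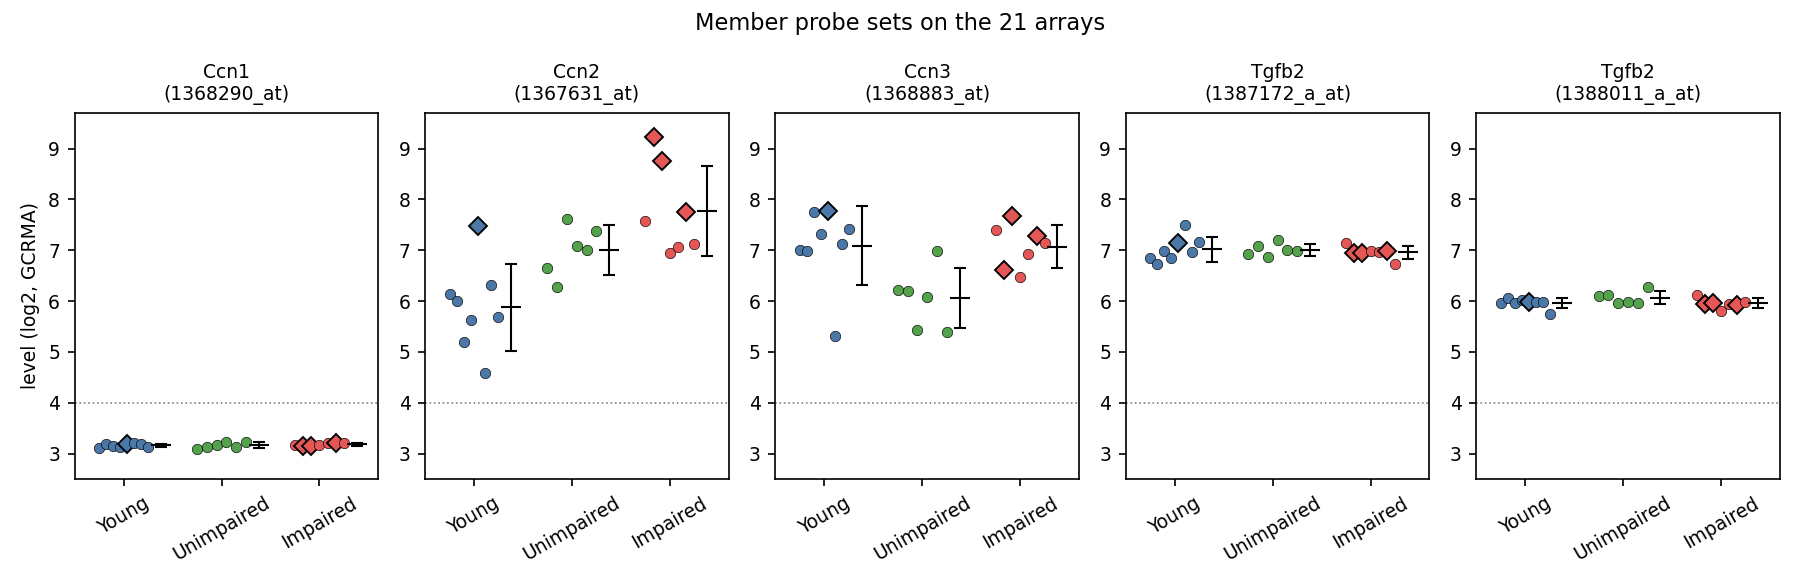
Level (log2, GCRMA) of each member probe set on the 21 arrays, with 1 point per array, the group mean ± SD beside the points, and a dotted line at the filter level of 4. Diamonds are the 4 arrays with high meningeal markers; Ccn2 runs from a young mean of 5.88 to an impaired mean of 7.78, Ccn3 has its lowest mean in the unimpaired group, and Ccn1 lies below the line on every array.

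The mean Ccn2 level was 5.88 ± 0.85 (SD, n = 8) in young, 7.003 ± 0.49 (SD, n = 6) in unimpaired and 7.78 ± 0.89 (SD, n = 7) in impaired animals. The impaired group exceeded the young by 1.90 ± 0.38 log2 (SE), or 3.74-fold, and all 7 impaired arrays lay above the young mean. This was the 3rd largest difference by size among the 15177 probe sets. The unimpaired group exceeded the young by 1.13 ± 0.39 log2 (SE), or 2.18-fold, with all 6 arrays above the young mean. Averaging both aged group means, the difference from young was 1.52 ± 0.33 log2 (SE), or 2.86-fold, and all 13 aged arrays lay above the young mean.

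Ccn2 was also compared between aged animals that learned well and those that did not. The arrays of this contrast also entered the differences from young on which Ccn2 was selected. Its estimate and p-values are therefore not free of that selection. The impaired minus unimpaired difference was 0.78 ± 0.41 log2 (SE), or 1.71-fold, with a 95% interval from -0.07 to 1.62, and 6 of 7 impaired arrays lay above the unimpaired mean. The difference did not pass: the limma adjusted p over all probe sets was 0.385, and a two-sided exact permutation test of this probe set gave p = 0.0880. The order of the means was therefore young, unimpaired, impaired, and the aged neighbours in that order did not differ beyond their spread.

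**Figure D2:**
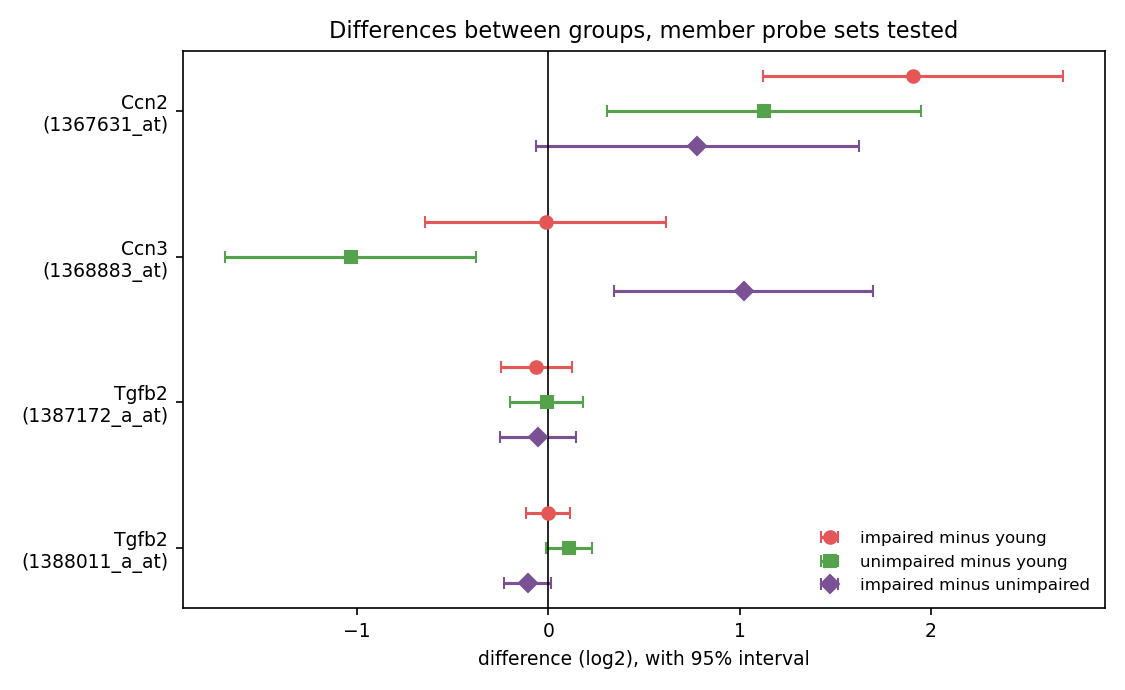
Difference between groups (log2) with its 95% interval for the 4 member probe sets tested, 1 row per probe set and 1 marker per pair of groups. The Ccn2 intervals against young lie right of 0, the Ccn3 intervals that involve the unimpaired group lie away from 0, and those of Tgfb2 are narrow and cross 0.

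Calls were made with limma at a Benjamini-Hochberg adjusted p below 0.05 over all 15177 probe sets. For impaired against young, 1 of the 4 member probe sets tested was called, Ccn2, beside 0.514% of all probe sets. For all aged against young the count was again 1 of 4, Ccn2, beside 1.11%. Ccn2 had been chosen on these contrasts, so nothing is read from either count. For unimpaired against young 0 of 4 were called by limma, and 2 had an unadjusted p below 0.05, beside 1.13% of all probe sets called and 2577 of 15177 at an unadjusted p below 0.05. For impaired against unimpaired 0 of 4 were called by limma, and 1 had an unadjusted p below 0.05, beside 0% of all probe sets called (0 of 15177, with 2199 at an unadjusted p below 0.05). The counts of 1 rested on single arrays. For impaired against young the count was 0 without Impaired replicate 2 or 3, or Young replicate 3, 6 or 9, where the Ccn2 difference was 1.66, 1.74, 1.81, 1.72 and 1.88 log2. For all aged against young it was 0 without Young replicate 3, 6 or 9, where the difference was 1.42, 1.33 and 1.49 log2. Without Young replicate 9, calls over all probe sets went from 78 to 36 for impaired, from 172 to 59 for unimpaired and from 168 to 91 for all aged against young. The count was also 0 for both contrasts when every probe set was tested with no filter on level, and for impaired against young when only those 2 groups were fitted.

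Markers of the meninges, the connective tissue that covers the brain, moved with Ccn2 on some arrays. Of 14 listed markers of meninges and fibroblasts all had a probe set, and their mean level was 3.97 ± 0.17 (SD; range 3.82 to 4.36, n = 8) in young, 3.79 ± 0.03 (SD; range 3.75 to 3.83, n = 6) in unimpaired and 4.31 ± 0.65 (SD; range 3.77 to 5.33, n = 7) in impaired animals. Impaired replicates 2, 3 and 7 stood at 5.33, 5.02 and 4.47, and Young replicate 5 at 4.36, while the other 17 arrays lay between 3.75 and 3.996. These were the 3 highest impaired arrays and the highest young array for Ccn2. On them 8, 8, 5 and 5 of the 14 markers exceeded 4, against 4 markers on each of the other 17 arrays. Dcn, which encodes the fibroblast proteoglycan decorin, reached 4.36, 5.99, 4.90 and 5.17 on these 4 arrays, and Col1a1, a collagen of fibroblasts, was below 4 on all 21.

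Mural cell markers (10 of 10 on the array) and immediate early genes (9 of 9), which neurons switch on with activity, were also high on some of these arrays. Only 5 of the mural markers and 4 of the immediate early genes passed the level filter, though the means took in all of them. The mural mean ranged from 4.25 to 4.50 in young, from 4.03 to 4.398 in unimpaired and from 4.12 to 5.06 in impaired animals, and was highest on Impaired replicates 2 and 3, at 5.06 and 4.79. The mean of immediate early genes ranged from 4.64 to 5.45 in young, from 4.87 to 5.33 in unimpaired and from 4.83 to 5.59 in impaired animals. It was highest on Impaired replicate 2 and lowest on Young replicate 6, the arrays with the highest and the lowest Ccn2 level. This mean was next highest on Young replicate 9, at 5.45, where Ccn2 was low, at 5.68 (rank 18 from the highest). With that mean as a covariate, added after the data were seen, the Ccn2 difference was 1.75 ± 0.30 log2 (SE) between impaired and young animals and 0.66 ± 0.32 log2 (SE; limma adjusted p = 0.373) between impaired and unimpaired animals. The endothelial mean was highest on Young replicate 5, at 7.55. The part of the mural and endothelial markers in the Ccn2 result was not tested.

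With the 4 arrays of high meningeal markers left out, a choice made after the data were seen, Ccn2 ranged from 4.58 to 6.31 in 7 young arrays, from 6.28 to 7.61 in 6 unimpaired arrays and from 6.95 to 7.58 in 4 impaired arrays. These arrays were also the highest for Ccn2 in their groups, so leaving them out narrows the young range and lowers the impaired mean by construction. The impaired minus young difference was then 1.53 ± 0.29 log2 (SE). The unimpaired difference from young was 1.35 ± 0.26 log2 (SE). The difference between impaired and unimpaired animals was 0.18 ± 0.30 log2 (SE), with a limma adjusted p of 0.857. With the meningeal mean as a covariate on all 21 arrays, likewise added after the data were seen, impaired and unimpaired animals exceeded the young by the same amount, 1.40 ± 0.27 log2 (SE) each. In that fit the impaired minus unimpaired difference was -0.00084 ± 0.31 log2 (SE), with a limma adjusted p of 0.999.

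**Figure D3:**
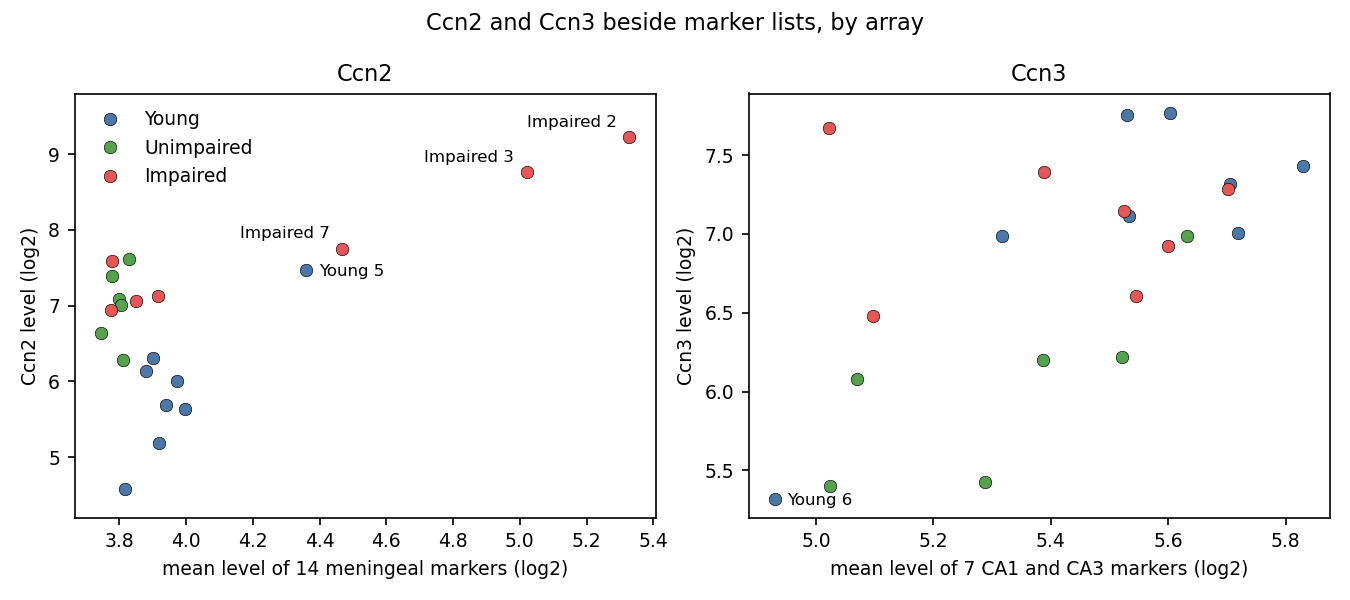
Left, Ccn2 level against the mean level of 14 meningeal markers on each array; right, Ccn3 level against the mean level of 7 markers of CA1 and CA3 pyramidal neurons (all log2, 1 point per array). Impaired replicates 2, 3 and 7 and Young replicate 5 stand to the right in the Ccn2 panel. At meningeal levels up to 3.996 the aged arrays lie above the young ones with little overlap. That range leaves out Young replicate 5, the highest young array for Ccn2, and Ccn2 was selected on its difference from young. Young replicate 6 has the lowest value on both axes of the Ccn3 panel.

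Ccn3 had another pattern, with its lowest mean in the unimpaired group, though no difference passed the correction over all probe sets. Its mean was nearly the same in young and impaired animals. The level (probe set 1368883_at) ranged from 5.32 to 7.77 in young animals, with a median of 7.21. Unimpaired animals ranged from 5.40 to 6.99, with a median of 6.14. Impaired animals ranged from 6.48 to 7.67, with a median of 7.15. Of the 6 unimpaired arrays, 5 lay between 5.40 and 6.22, below every impaired array, and only Unimpaired replicate 7, at 6.99, reached the impaired range. All 6 lay within the young range, whose lower end was set by Young replicate 6. Young replicate 6, at 5.32, was the lowest of all 21 arrays, apart from the other young arrays at 6.99 to 7.77.

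The mean Ccn3 level was 7.09 ± 0.78 (SD, n = 8) in young, 6.05 ± 0.59 (SD, n = 6) in unimpaired and 7.07 ± 0.43 (SD, n = 7) in impaired animals. Impaired minus unimpaired was 1.02 ± 0.33 log2 (SE), or 2.03-fold, with a 95% interval from 0.34 to 1.70. All 7 impaired arrays lay above the unimpaired mean, and the difference ranked 18th by size among all probe sets. A two-sided exact permutation test of this probe set gave p = 0.00583, but the limma adjusted p over all probe sets was 0.196, so the difference failed the correction. Unimpaired animals differed from young by -1.03 ± 0.32 log2 (SE), with a 95% interval from -1.69 to -0.38 and all 6 arrays below the young mean. The exact permutation p was 0.0220 and the limma adjusted p 0.109, and this difference also failed the correction. Without Young replicate 6 it was -1.29 log2 and was called, with a limma adjusted p of 0.0204. Impaired animals differed from young by -0.01 ± 0.30 log2 (SE), with a 95% interval from -0.64 to 0.62 and a limma adjusted p of 0.991. For all aged against young the difference was -0.52 ± 0.26 log2 (SE), with a limma adjusted p of 0.367. The members were chosen with earlier results of these data known. The Ccn3 p-values, and its call without Young replicate 6, are therefore not free of that choice.

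Of the marker lists, 3 were lower in unimpaired than in young animals, the unimpaired group being the one with the lowest Ccn3 mean. Over all genes tested, 32.8% were higher in unimpaired than in young animals, and the median difference was -0.04 log2. Two-sided exact permutation tests of list means were made for 10 marker lists and 3 pairs of groups, with adjustment over the 30 tests. Unimpaired minus young was -0.27 log2 for oligodendrocyte markers (10.4 against 10.7, adjusted p = 0.0200, exact permutation). It was -0.24 log2 for endothelial markers (7.18 against 7.42, adjusted p = 0.0200) and -0.18 log2 for the meningeal markers (adjusted p = 0.0366) in the same exact permutation tests. No other pair of groups passed for these or for the lists of granule neurons, CA1 and CA3 pyramidal neurons, astrocytes, microglia, mural cells, choroid plexus and immediate early genes (adjusted p from 0.0524 to 0.915, exact permutation). Of the 14 meningeal markers only 4 passed the level filter, and 2 of those were higher in unimpaired than in young animals. The part of the oligodendrocyte and endothelial markers in the Ccn3 result was not tested. The CA1 and CA3 list marks the neighbouring hippocampal fields, with 7 of 8 markers on the array and 5 past the level filter. Its mean was 5.52 ± 0.28 (SD, n = 8) in young, 5.32 ± 0.24 (SD, n = 6) in unimpaired and 5.41 ± 0.26 (SD, n = 7) in impaired animals. Young replicate 6, the array lowest for Ccn3, was also lowest for this list, at 4.93. With that mean as a covariate, added after the data were seen, the Ccn3 difference between impaired and unimpaired animals was 0.90 ± 0.28 log2 (SE; limma adjusted p = 0.212) and that between unimpaired and young was -0.76 ± 0.28 log2 (SE; limma adjusted p = 0.203).

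Tgfb2, the ligand, was measured by a pair of probe sets that showed little difference between groups. Probe set 1387172_a_at averaged 7.02 ± 0.24 (SD, n = 8) in young, 7.01 ± 0.12 (SD, n = 6) in unimpaired and 6.96 ± 0.12 (SD, n = 7) in impaired animals. Its 21 values lay between 6.72 and 7.49, and the groups overlapped throughout. Impaired minus young was -0.06 ± 0.09 log2 (SE), with a 95% interval from -0.25 to 0.12 and a limma adjusted p of 0.832. Unimpaired minus young was -0.01 ± 0.09 log2 (SE; limma adjusted p = 0.970). Probe set 1388011_a_at averaged 5.96 ± 0.10 (SD, n = 8), 6.07 ± 0.13 (SD, n = 6) and 5.96 ± 0.09 (SD, n = 7) in the same order. Its largest contrast was impaired minus unimpaired, at -0.11 ± 0.06 log2 (SE), with a 95% interval from -0.23 to 0.01 and a limma adjusted p of 0.403. Over both probe sets and these contrasts, the intervals reached no further than -0.25 and 0.23 log2. Over the 21 arrays the probe sets had a Pearson r of -0.08 with each other, a description over arrays that share a normalisation.

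Ccn1, an immediate early member of the family and the closest relative of Ccn2 in its response to YAP, lay between 3.09 and 3.24 on all 21 arrays. It was above 4 on 0 arrays, did not enter the test, and a group difference was not detectable at that signal. The remaining family members Ccn4, Ccn5 and Ccn6 were also on the array and reached at most 2.30, 2.26 and 2.83. Of the family, Ccn2 and Ccn3 were thus the members above the filter level.

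Genes around the members were described by 8 lists of 118 genes, of which 60 had a tested probe set. None was called in any contrast by limma over all probe sets, where 0.618% of all genes tested were called for impaired against young, 1.29% for unimpaired against young and 0% for impaired against unimpaired. The median difference over the 60 genes was 0.03 log2 for impaired against young, beside 0.01 over all genes, and -0.05 beside -0.04 for unimpaired against young. For impaired against unimpaired, 51 of 60 were positive and the median was 0.07 log2, beside 74.7% positive and a median of 0.05 over all genes. The largest difference in size among the 60 genes was 0.99 log2 for impaired against young (Bhlhe40), 0.70 log2 for unimpaired against young (Bhlhe40) and 0.76 log2 for impaired against unimpaired (Mgp).

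**Figure D4:**
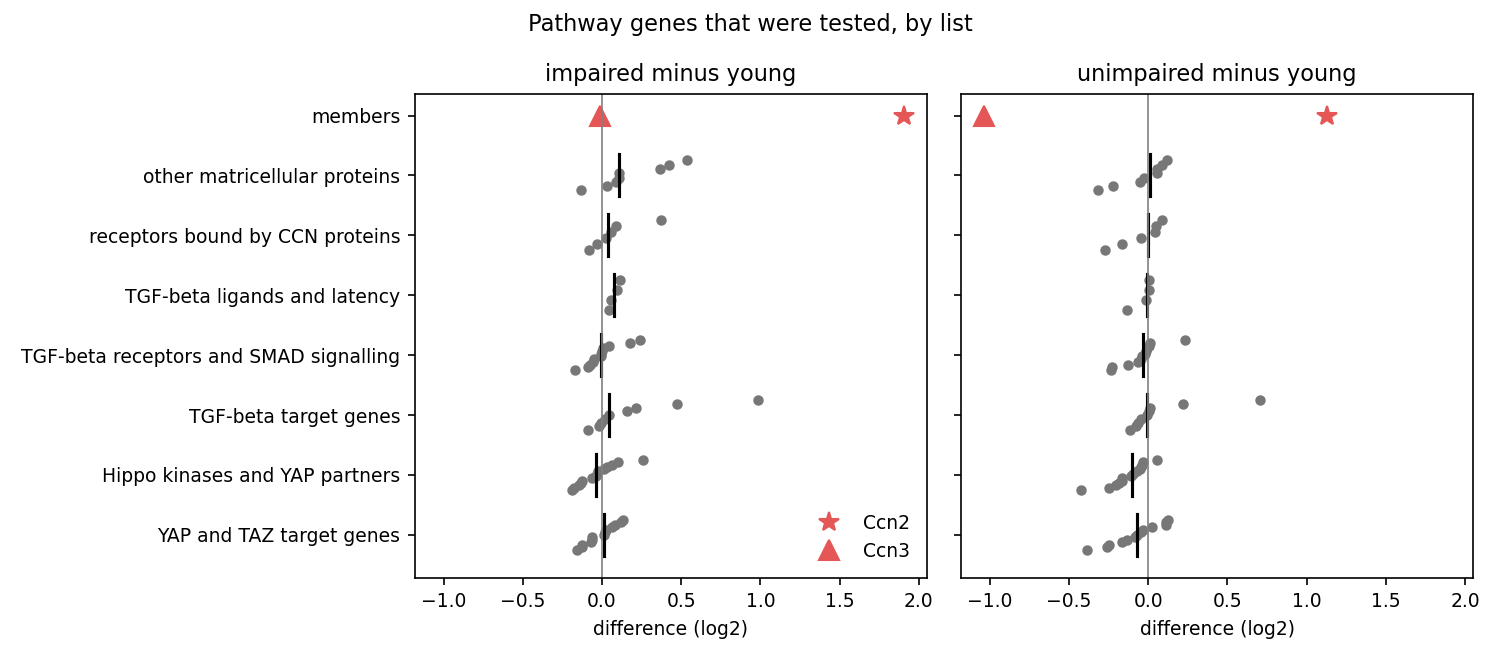
Difference from young (log2) of each tested pathway gene (grey points) and the median of each list (black bar), for impaired animals on the left and unimpaired animals on the right, with Ccn2 as a star and Ccn3 as a triangle in the top row. List medians lie near 0 in both panels. No grey point reaches the Ccn2 difference of 1.90 or 1.13, but Ccn2 was selected on its differences from young.

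Among other matricellular proteins, 8 of 22 were tested, 0 were called, and the impaired minus young median was 0.11 log2. Spock3, a brain proteoglycan, averaged 8.79 ± 0.23 (SD, n = 8) in young and 9.15 ± 0.24 (SD, n = 7) in impaired animals (difference 0.37 ± 0.10 log2, SE; limma adjusted p = 0.122). Sparc, a collagen-binding glycoprotein of astrocytes and vessels, differed by -0.31 ± 0.10 log2 (SE) between unimpaired and young animals (limma adjusted p = 0.108). Smoc1 lay close to the filter, at 4.11 in young and 4.22 in impaired animals. The matricellular genes Tnc, Spp1 and Postn did not pass the filter.

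Of the receptors that CCN proteins bind, 6 of 13 were tested and 0 were called. Itgav, the integrin alpha subunit that pairs into several CCN receptors, came closest. It ranged from 8.36 to 8.99 in young, from 8.61 to 8.82 in unimpaired and from 8.67 to 9.32 in impaired animals. All 7 impaired arrays lay above the young mean, but the groups overlapped. The impaired minus young difference was 0.37 ± 0.10 log2 (SE), with a limma adjusted p of 0.0857. It was called when Impaired replicate 4 was left out (0.42 log2, limma adjusted p = 0.0465) and when Young replicate 5 was left out (0.42 log2, limma adjusted p = 0.0262). Its partner Itgb1 differed by -0.27 ± 0.09 log2 (SE) between unimpaired and young animals (limma adjusted p = 0.146). Itga6 differed by -0.16 log2 in that contrast.

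In the TGF-beta system the ligand and latency list had 4 of 12 genes tested and 0 called. Tgfb1 and Tgfb3, the other ligands, did not pass the filter. Bgn, the proteoglycan biglycan, differed by 0.23 ± 0.10 log2 (SE) between impaired and unimpaired animals (limma adjusted p = 0.303), and Ltbp3 and Ltbp4, which hold latent TGF-beta in the matrix, differed from young by at most 0.12 log2. Of the receptors and SMAD proteins, 12 of 17 were tested and 0 were called. Tgfbr1, the type I receptor that works with Tgfbr2, ranged from 8.79 to 9.10 in young, from 8.53 to 8.80 in unimpaired and from 8.67 to 9.01 in impaired animals. The unimpaired arrays reached no higher than the lower end of the young range. Their difference from young was -0.24 ± 0.06 log2 (SE), with a limma adjusted p of 0.0670. Smad3, a receptor-activated SMAD, differed by 0.24 ± 0.08 log2 (SE) between all aged and young animals (limma adjusted p = 0.155). Smad3 was called without Young replicate 5 (0.30 log2, limma adjusted p = 0.0347). Smad2, of the same list, differed by -0.12 ± 0.07 log2 (SE) between all aged and young animals, with a limma adjusted p of 0.478. Map3k7, the kinase TAK1, differed by 0.18 log2 between impaired and young animals (limma adjusted p = 0.210).

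TGF-beta target genes other than Ccn2 had 9 of 18 tested and 0 called, with an impaired minus young median of 0.04 log2. Bhlhe40, a transcription factor of the clock and stress responses, ranged from 3.40 to 5.47 in young, from 4.25 to 6.90 in unimpaired and from 5.01 to 6.33 in impaired animals. Its impaired minus young difference was 0.99 ± 0.32 log2 (SE; limma adjusted p = 0.183), the largest in size of the 60 pathway genes in that contrast. Fn1, fibronectin, differed by 0.48 ± 0.21 log2 (SE; limma adjusted p = 0.341), and Acta2, smooth muscle actin, by 0.16 log2.

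The Hippo kinases and YAP partners had 14 of 20 genes tested, 0 called, with 5 of 14 positive for impaired against young (56.2% of all genes) and 1 of 14 for unimpaired against young (32.8% of all genes). The medians were -0.04 and -0.10 log2, and no test of these shares was made. Wwc1, the scaffold KIBRA, differed by -0.43 ± 0.13 log2 (SE) between unimpaired and young animals (limma adjusted p = 0.117). Nf2, the upstream regulator merlin, differed by -0.19 ± 0.07 log2 (SE) in the same contrast (limma adjusted p = 0.168). Nf2 was called for all aged against young without Young replicate 5 (-0.21 log2, limma adjusted p = 0.0407). Of the YAP and TAZ target genes other than the members, 13 of 22 were tested and 0 were called, and the median was 0.02 log2 for impaired and -0.07 log2 for unimpaired against young. Amotl2, an angiomotin that is both a YAP inhibitor and a YAP target, differed by -0.25 ± 0.09 log2 (SE) in unimpaired animals (limma adjusted p = 0.174). Axl, a receptor kinase, lay below the young mean on all 13 aged arrays, with a difference of -0.13 ± 0.04 log2 (SE; limma adjusted p = 0.177), and Arhgef17 differed by 0.12 log2 for all aged against young (limma adjusted p = 0.200). The targets named here had smaller differences than Ccn2. Ccn2 was selected on its own differences from young, so nothing is read from that comparison.

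The genes whose levels followed Ccn2 most closely were ranked by Pearson r over the 21 arrays, among 8736 other genes, as a description with no test. The arrays share the group difference in Ccn2, so a gene that differs with age ranks high for that reason too. The highest were Bmp6 at 0.890, Hyal3 at 0.840, Gstp1 at 0.825, Rbp4 at 0.811, Adgra2 at 0.805, Nfkbia at 0.798, Mertk at 0.797 and Arpc1b at 0.796. Bmp6, a bone morphogenetic protein of the TGF-beta superfamily, ranged from 6.93 to 7.59 in young, from 7.56 to 7.88 in unimpaired and from 7.55 to 8.37 in impaired animals. Its highest young array was Young replicate 5, as for Ccn2. The lowest r belonged to Nalf2 at -0.839, Mtss1 at -0.820, Sema3c at -0.817 and D430041D05Rikl at -0.802. Sema3c, a secreted axon guidance protein, ranged from 7.56 to 8.60 in young, from 6.16 to 6.92 in unimpaired and from 5.83 to 6.95 in impaired animals.

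**Figure D5:**
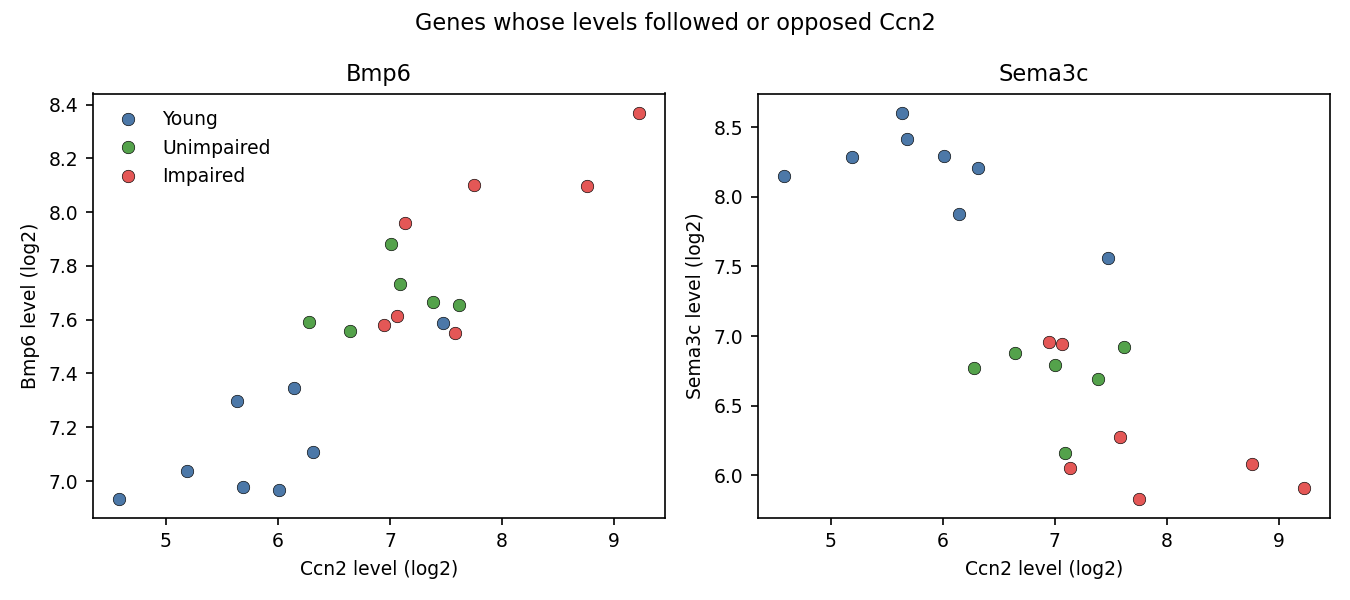
Level of Bmp6 (left) and Sema3c (right) against the level of Ccn2 on each of the 21 arrays (log2, 1 point per array, coloured by group). Bmp6 is higher where Ccn2 is higher (r = 0.890) and Sema3c is lower there (r = -0.817); Young replicate 5 lies among the aged arrays on the Ccn2 and Bmp6 axes.

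When each array was set against its group mean, which removes the group difference, the genes nearest to Ccn2 were Mertk at 0.763, Igfbp2 at 0.763, Nfkbia at 0.749, Vwf at 0.749, Ptgds at 0.749, Bmp6 at 0.742, Tmem123 at 0.738 and Cyp26b1 at 0.733. Igfbp2 and Ptgds belong to the meningeal marker list, and Vwf is an endothelial clotting factor. Ptgds, a prostaglandin synthase abundant in the meninges, averaged 10.4 ± 0.50 (SD, n = 8) in young, 10.4 ± 0.20 (SD, n = 6) in unimpaired and 11.8 ± 1.55 (SD, n = 7) in impaired animals. The lowest r on deviations belonged to Syt17 at -0.770, Mtss1 at -0.750, Nsdhl at -0.708 and Nalf2 at -0.701. Bmp6, Mertk and Nfkbia stood among the nearest genes by both measures with Pearson r. By Spearman's rho, a correlation of ranks, Bmp6 and Mertk were among the 8 nearest in level and Nfkbia was not. On deviations none of these genes was among the 8 nearest by rho. For Ccn3, a ranking added after its values were seen placed Sertm1 first at 0.794, followed by Mpped1 at 0.783, a gene of the CA1 and CA3 marker list. Between Ccn2 and Ccn3 themselves r was 0.07 over the arrays.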

How the data were processed

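RNA from the dentate gyrus was measured on Affymetrix rat expression arrays. The deposited values are log2 levels per probe set (31099 in all). GCRMA is the method that the submitters' processing notes name for them; its version and the genome build are not given in the sources used here. Symbols came from the platform annotation, where 20826 probe sets had 1 symbol. After removing 57 control probe sets and filtering (above 4 on at least 6 arrays), the 3 groups were fitted together with limma 3.58.1 in R 4.3.3 (lmFit, eBayes, 18 residual degrees of freedom), with Benjamini-Hochberg adjustment over 15177 probe sets; the script was tested on simulated data. Array number limits the precision, since arrays give no read depth. A gene on several probe sets was read from the brightest tested, members from each. Marker lists used exact permutation tests of list means over all listed genes on the array.

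Pathway genes named are those called, otherwise up to 3 per list with the smallest p; the 8 genes most like and 4 least like Ccn2 are named too. Other genes, such as Mgp, Dcn, Smad2 and the Ccn3 neighbours, were chosen after their values were seen. Members and lists were chosen with earlier results of these data known. All value columns were used. Replicates are separately labelled animals. Alternatives changed the filter, centring, normalization, limma options, groups fitted and arrays.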

Additional observations from a re-analysis of the deposited data

Results flagged for a closer look

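In 105 groups of 6 to 8 arrays (35 probe sets, genes and marker means in 3 groups each), 10 held an array whose gap to the nearest other array was large for the range of its group. Chance sets apart about 1 in 20 groups. Among the members, Young replicate 6 stood at 5.32 for Ccn3, with the other young arrays at 6.99 to 7.77, and Young replicate 9 stood at 5.74 for Tgfb2 probe set 1388011_a_at, with the others at 5.95 to 6.06. Ccn2 had no such array in any group. Among pathway genes, Unimpaired replicate 6 stood at 6.26 for Bgn (others 6.65 to 6.68), Unimpaired replicate 1 at 6.58 for Ltbp3 (others 6.74 to 6.80) and Young replicate 6 at 8.02 for Amotl2 (others 8.27 to 8.46).

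Among marker means, Young replicate 5 stood at 4.36 for meninges and fibroblasts (others 3.82 to 3.996). The choroid plexus mean was 4.25 on Young replicate 2 (others 3.33 to 3.49) and 4.05 on Unimpaired replicate 3 (others 3.23 to 3.44). The mean of immediate early genes was 5.33 on Unimpaired replicate 4 (others 4.87 to 5.01) and 5.59 on Impaired replicate 2 (others 4.83 to 5.12). Impaired replicate 2 was also the array with the highest Ccn2 level.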

How the results depend on the processing

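Results were recomputed under 12 other settings (8 planned, 4 added after the data were seen) and with each of 21 arrays left out. Ccn2 stayed higher in impaired than young animals in every setting run, at 1.40 to 2.17 log2, and at 1.66 to 2.13 with an array left out. Called members for impaired against young numbered 0 with no filter on level and 0 with only the groups compared, and 0 to 1 with an array left out. For all aged against young they numbered 0 with no filter, and 0 to 1 with an array left out. For unimpaired against young they numbered 1 (Ccn2) with the 4 arrays of high meningeal markers left out and 1 (Ccn2) with the meningeal covariate. Ccn2 was selected on its differences from young and both settings were added after the data were seen, so nothing is read from these calls. With an array left out the members called in that contrast numbered 0 to 1, the 1 being Ccn3 without Young replicate 6. Pathway calls ranged from 0 to 1 for impaired against young and from 0 to 2 for all aged against young with an array left out. Differences near 0 changed sign. Ccn3, impaired against young, was 0.0232 with array weights, 0.20 with the replicate block and 0.14 with the CA1 and CA3 covariate, and -0.27 to 0.0845 with an array left out. For Tgfb2 probe set 1387172_a_at, impaired against young was 0.00017 with the replicate block and -0.11 to 0.0049 with an array left out. Its unimpaired minus young difference was 0.0451 with median centring, 0.0354 with quantile normalization, 0.0547 with array weights, 0.0327 with the replicate block, 0.0076 without the 4 arrays and -0.0521 to 0.0579 with an array left out. Its aged minus young difference was 0.0175 with array weights, 0.0164 with the replicate block and -0.0786 to 0.0314 with an array left out. For 1388011_a_at, impaired against young was 0.0069 without the 4 arrays, 0.0095 with the immediate early gene covariate and -0.0353 to 0.0213 with an array left out, and aged minus young was -0.0012 with the replicate block. The Ccn2 difference between impaired and unimpaired animals was -0.00084 with the meningeal covariate. The cause of these changes was not tested. Over all probe sets, calls ranged from 23 to 114 for impaired against young, from 9 to 195 for unimpaired against young, from 0 to 1 for impaired against unimpaired and from 76 to 232 for all aged against young across the other settings. With an array left out the same counts ranged from 36 to 161, from 59 to 222, from 0 to 4 and from 89 to 239. They moved by over 1.5 times for impaired against young without Impaired replicates 2, 3 or 7, Unimpaired replicate 3 or Young replicates 3, 5, 6, 7 or 9, and for unimpaired against young without Unimpaired replicates 1, 3, 4, 6 or 8 or Young replicates 6 or 9. They did so for all aged against young without Young replicates 6 or 9, and for impaired against unimpaired without Unimpaired replicates 1 or 7. Same-numbered arrays correlated above 0.1 in 4 of 17 pairs, and 3 of 19 arrays correlated best with their own number, so the numbers were not taken as pairs; with the replicate block the Ccn2 difference between impaired and young animals was 2.17 ± 0.36 log2 (SE). By Spearman's rho, 4 of the 8 genes nearest to Ccn2 in level and 2 of the 8 on deviations were among its 8 nearest as well. Array number limits the precision, and Ccn1, below the filter on every array, was not tested.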
